A study of Cricetulus griseus with 10 samples.

Results

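The genes described are 39 components of the machinery that builds asparagine-linked glycans (N-glycans); they form a list of named genes and were looked up in the deposited table by symbol or by Chinese hamster gene number. Of the 39, 21 were found by symbol and 12 by gene number, so that 33 could be followed. The other 6, Dpagt1, Rpn2, B4galt1, St3gal1, St6gal1 and Gmds, were not matched to a feature and are not analysed here. Features needed a mean of at least 10 normalised reads over all libraries to be tested. All 33 matched genes did, the lowest mean being 31.4 for Mgat4a, so no gene fell just outside this limit. They stand among 13521 features tested of 25156 in the table.

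N-glycosylation begins in the endoplasmic reticulum, where a lipid-linked oligosaccharide is transferred en bloc to a nascent protein by the oligosaccharyltransferase complex, and glucosidases then trim the transferred glycan. In the Golgi, mannosidases remove mannose, and N-acetylglucosaminyltransferases, galactosyltransferases, sialyltransferases and a fucosyltransferase build complex glycans from nucleotide sugars that dedicated transporters carry in. CHO cells are the common host for therapeutic antibodies and other glycoproteins, and the branching, galactose, core fucose and sialic acid of their N-glycans are followed as properties of the product.

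RNA came from CHO-K1, a cell line derived from Chinese hamster ovary, of wild type genotype, taken through an adaptation to suspension growth in SFM4CHO, a serum-free medium. Libraries were made in duplicate from passages 0, 2, 4, 6 and 10 of the adaptation, called P0, P2, P4, P6 and P10 below, which gives 10 in all. The labels give the same growth text for every passage, so how the P0 cells were grown before the switch is not stated, and nothing says that duplicates are independent cultures: the p-values thus reflect the spread among these libraries alone, which may be technical. Between 8394219 and 16599495 reads were assigned to features per library. Of 7 fibroblast and mesenchymal markers, 5 had a mean of at least 10. But Thy1 was at 0 in all 10 libraries, and the collagen genes Col1a2 and Col1a1 had means of 0.947 and 17.0. The summed level of the 7 was 27292 and 24770.1 at P0 and 36532 to 62490.2 later. Of this, Col3a1 had 11822 and 11120 at P0, 41328 to 43931 at P2 and P4, and 11851 and 17335 at P10. Vim stayed between 12373 and 23048. By contrast, of 5 epithelial markers only Cdh1 had a mean of at least 10, and Krt18 and Krt19 had a read in 1 and 4 of the 10 libraries. Such a mean was reached by 4 of 7 ovarian granulosa and 3 of 5 endothelial markers, with summed levels of 72.6 to 128 and 65.6 to 156. Of the granulosa markers, Foxl2 and Cyp19a1 were not matched to a feature, and Nr5a1 had a mean of 3.48. Summed over 8 leukocyte markers, the level was 54.9 and 63.2 normalised reads at P0 and 106 to 217 later, with Tyrobp and Cd14 at or near 0 throughout. Of this, Itgax had 0 and 1.44 at P0 and 71.2 and 78.1 at P4. Cd68 had 32.2 and 37.4 at P0 and 82.1 and 97.9 at P4, while Ptprc stayed between 9.58 and 29.2. The part of these markers in the results below was not tested. In bulk RNA, less transcript per cell and fewer cells that carry it cannot be told apart.

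Duplicates lay close together at P0, P2 and P4 and further apart at P6 and P10. For the 33 genes the median absolute log2 difference between duplicates was 0.11, 0.09 and 0.11 at P0, P2 and P4, and 0.40 and 0.47 at P6 and P10. P6 replicate 2 and P10 replicate 1 stood apart from the other 8 libraries, and in both the feature Dym, which took 8.53 to 13.5% of normalised reads at P0, P2 and P4, was down to 1.15% and 1.41%. P6 replicate 1 had 4.32% and P10 replicate 2 had 10.7%. The test used 1 spread per gene over all passages, so the spread at P6 and P10 enters the error of every comparison. Several of the results that rest on these libraries are given with and without them. Leaving out any P0, P2 or P4 library lowered the share of all features called in every comparison made below. Leaving out a P6 library lowered it at P6 and for P6 and P10 against P2 and P4. A call lost in such a fit is thus not read as a trait of that gene alone.

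In total 8 of the 33 genes passed the test in at least 1 of the 5 comparisons, beside 29.3% of all features (limma on log2 of the normalised value plus 1, Benjamini-Hochberg adjusted p under 0.05 over all 13521 features). At P2 against P0, 1 gene rose and none fell, which is 3.03% of the genes against 4.15% of all features, 2.08% higher and 2.07% lower. At P4, 3 rose and none fell, 9.09% against 9.24%, of which 3.72% higher and 5.52% lower. By limma at an unadjusted p under 0.05, 3 genes were higher and 4 lower at P2, beside 8.1% and 10.5% of all features, and 5 higher and 7 lower at P4, beside 10.4% and 13.7%. At P2 and P4, edgeR on recovered reads called none of the genes lower, beside 1.87% and 5.3% of all features, and DESeq2 called none at P2 and 1 at P4, beside 4.3% and 7.99%. At P6, 4 rose and 3 fell, 21.2% against 21%, of which 10.5% in each direction. With TMM scaling 4 rose and 1 fell at P6, where 10.6% of all features were called higher and 10.4% lower. The counts were the same with edgeR, beside 10.6% and 9.86%, and with DESeq2 4 rose and 6 fell, beside 13.5% and 12.7%. At P10, 2 rose and 1 fell, 9.09% against 17%, of which 8.77% higher and 8.25% lower. The shares called at P2, P4 and P6 were near those of all features, and at P10 the share was the lower.

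When each comparison took its spread from its own passages alone, 11 genes were called at P2 (33.3% against 29.1% of all features) and 17 at P4 (51.5% against 42%). In the same fits 3 were called at P6, 9.09% against 19.4%, and none at P10, where 0.362% of all features were called. At P10 6 of the 33 had an unadjusted p under 0.05, beside 20.3% of all features. The libraries of the passages compared did not overlap in many more genes than passed. Both P2 libraries lay above both P0 libraries in 12 genes and below them in 10, beside 34.2% and 32.9% of all features. At P4 these numbers were 15 and 12 (37.8% and 34.6%), at P6 6 and 13 (32% and 35.7%), and at P10 8 and 13 (28.3% and 26%). The median log2 differences of the 33 genes were 0.00, 0.05, -0.22 and -0.22 at P2, P4, P6 and P10, beside 0.01, 0.03, -0.07 and 0.00 over all features. The test over all 4 differences at once passed for Dad1, St3gal3 and Man2a2, 3 of 33, beside 11% of all features.

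**Figure D1:**
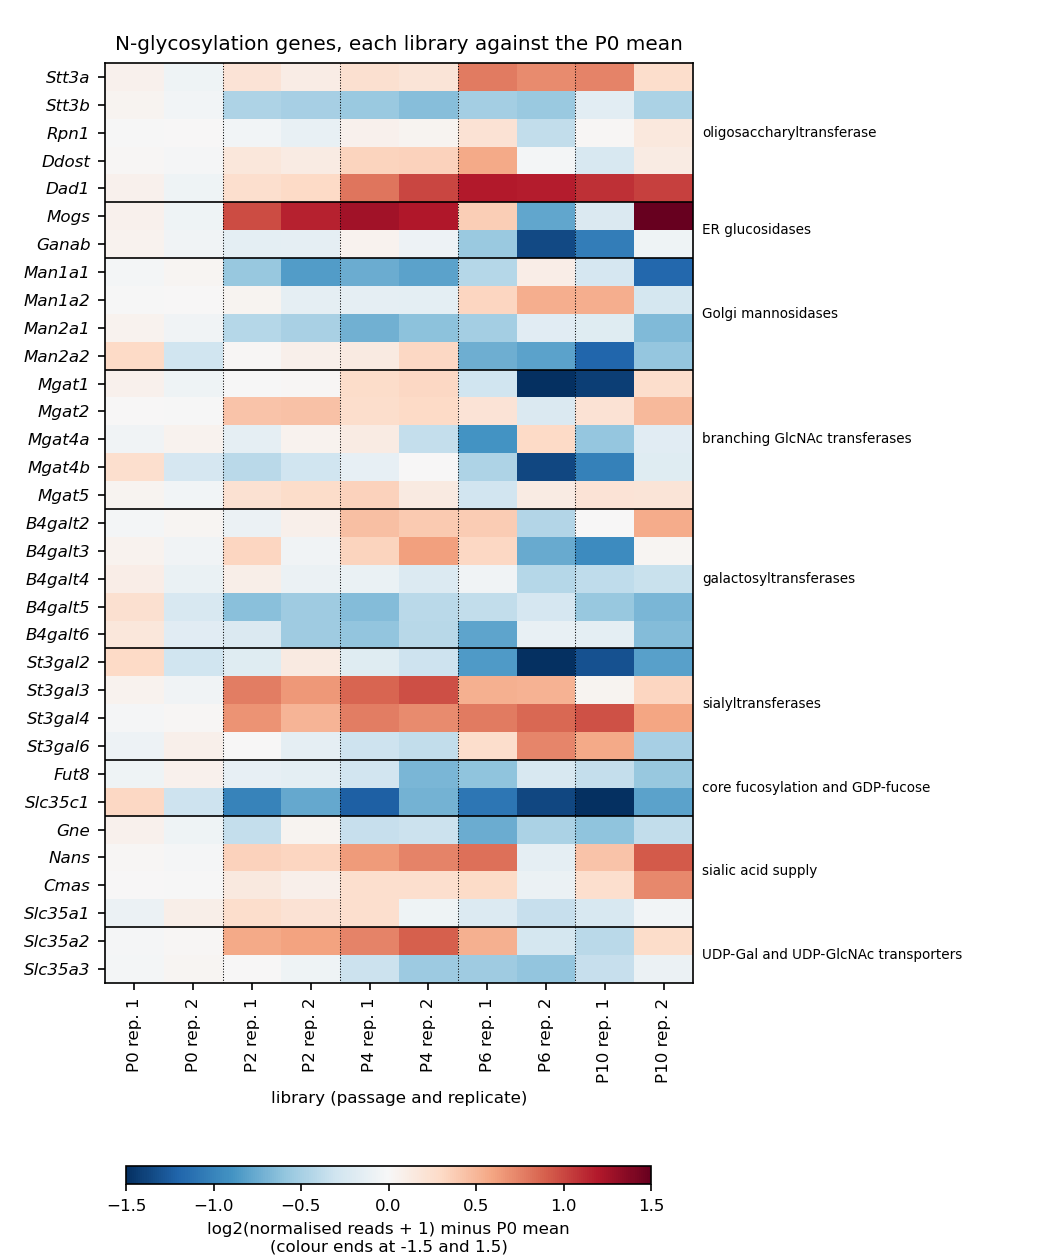
Difference of each library from the mean of the P0 libraries, on the scale of log2(normalised reads + 1), for the 33 genes (rows, grouped by role) in the 10 libraries (columns). Dad1 and St3gal4 are raised in all later libraries, from 0.26 and 0.51 upwards, while P6 replicate 2 and P10 replicate 1 share low values of Mgat1, Ganab, Mgat4b and St3gal2.

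The oligosaccharyltransferase held the 1 gene of the 33 with calls that outlasted the loss of any library, Dad1, a small membrane subunit of the complex (feature 100767387). Its normalised reads were 472 and 431 (P0), 539 and 553 (P2), 785 and 902 (P4), 1033 and 1018 (P6) and 963 and 919 (P10). Both libraries of every later passage lay above both P0 libraries, and those of P4, P6 and P10 were 1.87, 2.27 and 2.08 times the P0 mean. The log2 differences from P0 were 0.90 (SE 0.15, adjusted p = 0.00980) at P4, 1.18 (SE 0.15, adjusted p = 0.00239) at P6 and 1.06 (SE 0.15, adjusted p = 0.00387) at P10, and 0.28 (SE 0.15, adjusted p = 0.397) at P2 did not pass. The P6 and P10 calls held in all 10 fits that left out 1 library each (highest adjusted p = 0.0281 and 0.0400), whereas the P4 call was lost without either P0 or either P4 library (highest 0.138). At P10 the call was also lost when the spread came from the P0 and P10 libraries alone (adjusted p = 0.106).

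The alternative catalytic subunits of the complex went different ways. Stt3a, whose form of the complex acts on proteins as they enter the endoplasmic reticulum, had 2738 and 2491 (P0), 3002 and 2811 (P2), 3087 and 2978 (P4), 4499.7 and 4265 (P6) and 4371 and 3147 (P10). The 2 P6 libraries and P10 replicate 1 were high and P10 replicate 2 lay close to the P2 and P4 libraries. Stt3a rose at P6, by 0.75 (SE 0.19, adjusted p = 0.0287), and was 0.51 (SE 0.19, adjusted p = 0.105) above P0 at P10, which did not pass. Stt3b, whose form also glycosylates sites that were skipped at first, had 2789 and 2627 (P0), 1956 and 1915 (P2), 1841 and 1744 (P4), 1900.0 and 1841 (P6) and 2433 and 1949 (P10). All 8 later libraries lay below both P0 libraries. Stt3b fell at P6, with a log2 difference of -0.53 (SE 0.16, adjusted p = 0.0499), just under the threshold; at P4 the difference was -0.59 (SE 0.16, adjusted p = 0.0566). Both P6 calls held only in the fits without P10 replicate 1 or without P10 replicate 2, and were lost in the other 8 fits without 1 library (highest adjusted p = 0.161 and 0.229); the call of Stt3b was also lost with TMM scaling (adjusted p = 0.0549) and by edgeR on recovered reads (0.0595).

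Rpn1 and Ddost, further subunits that support the catalytic ones, did not pass. Rpn1 had 6344 and 6367 (P0), 6186 and 5891 (P2), 6662 and 6525 (P4), 7365 and 4911 (P6) and 6417 and 7078 (P10), a range that includes the P0 values, and at P10 stood 0.08 (SE 0.22, adjusted p = 0.830) from P0. Ddost ranged from 3619 to 6347, highest in P6 replicate 1 and lowest in P10 replicate 1.

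**Figure D2:**
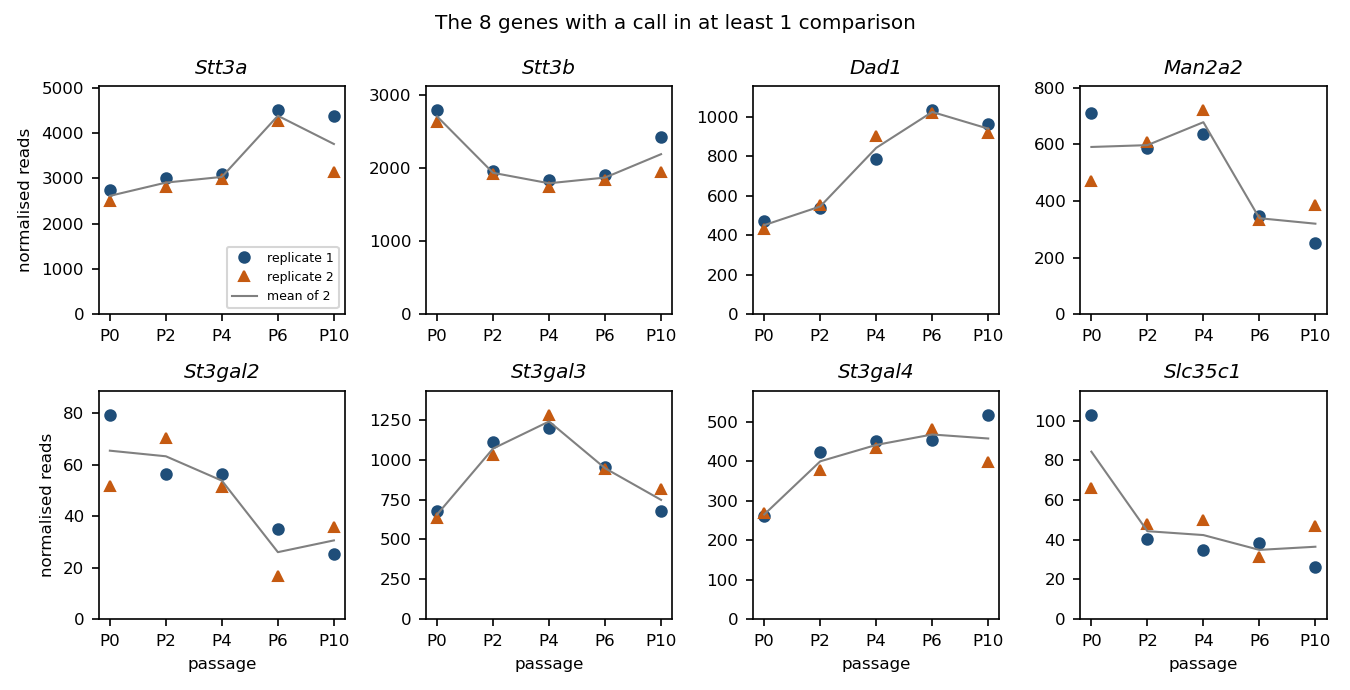
Normalised reads (y axis, from 0) of the 8 genes that passed in at least 1 comparison, by passage (x axis), with each replicate as a point and the mean of both as a line. Dad1 goes from 472 and 431 at P0 to 963 and 919 at P10, and St3gal3 is highest at P4 with 1202 and 1280.

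The glucosidases that trim the glycan after transfer did not pass. Mogs, which removes the outermost glucose (feature 100689098), had 334 and 306 (P0), 630.1 and 714 (P2), 765 and 734 (P4), 412 and 185 (P6) and 274 and 988 (P10). Its P2 and P4 libraries all lay above the P0 libraries, at 2.10 and 2.34 times the P0 mean, but P10 replicate 2 held the highest value and P6 replicate 2 the lowest of all 10. The log2 differences were 1.07 (SE 0.54, adjusted p = 0.347) at P2, 1.23 (SE 0.54, adjusted p = 0.207) at P4 and 0.70 (SE 0.54, adjusted p = 0.414) at P10, and the last turned to -0.22 without P10 replicate 2. Without P6 replicate 2 and P10 replicate 1, the log2 differences of Mogs were 1.07, 1.23, 0.36 and 1.63 at P2, P4, P6 and P10. P6 and P10 are then 1 library each, and the P10 duplicates of Mogs lay 1.85 apart on the log2 scale. Ganab, the catalytic subunit of the enzyme that removes the remaining glucoses, had 4974 and 4631 (P0), 4327 and 4361 (P2), 4971 and 4570.0 (P4), 3273 and 1879.5 (P6) and 2338 and 4605 (P10). Both P6 libraries and P10 replicate 1 were low, P6 replicate 2 lowest of all, and the other 7 libraries lay close together. The difference of -0.95 (SE 0.34, adjusted p = 0.0777) at P6 did not pass.

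Among the Golgi mannosidases, 1 of 4 passed in at least 1 comparison, beside 29.3% of all features. Man2a2, which trims mannose after the first N-acetylglucosamine has been added, had 713 and 470.0 (P0), 586 and 609 (P2), 637 and 720.3 (P4), 347 and 331 (P6) and 252 and 388 (P10). All 4 libraries of P6 and P10 lay below the other 6, though the P0 duplicates were far apart. Man2a2 fell at P10, with a log2 difference of -0.89 (SE 0.26, adjusted p = 0.0460), and was -0.77 (SE 0.26, adjusted p = 0.0638) from P0 at P6. The P10 call held only without P10 replicate 2 and was lost in the other 9 fits without 1 library (highest adjusted p = 0.302); without P10 replicate 1 the difference was -0.58. It was also -0.58 with P6 replicate 2 left out as well.

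Man2a1, the paralogous enzyme, and Man1a1 and Man1a2, which trim mannose before the branching step, did not pass. Man1a1 (feature 100767553) had 3674 and 3856 (P0), 2540.1 and 2113 (P2), 2245 and 2159 (P4), 2800.0 and 4041 (P6) and 3168 and 1666 (P10), so that P2 and P4 lay below P0 while P6 replicate 2 lay above it and P10 replicate 2 was the lowest. Its difference at P10 was -0.71 (SE 0.30, adjusted p = 0.138), and -1.18 without P6 replicate 2 and P10 replicate 1, where P10 is 1 library. Man2a1 ranged from 1998 to 3409, with all later libraries below both P0 libraries. In that reduced set its differences were -0.46, -0.67, -0.51 and -0.66 at P2, P4, P6 and P10. Man1a2 ranged from 1325 to 2321, highest in P6 replicate 2 and P10 replicate 1.

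None of the 5 N-acetylglucosaminyltransferases that start and extend the branches passed in any comparison. Mgat1, which adds the first branch and without which no complex glycan forms, had 429 and 391 (P0), 409 and 416 (P2), 496 and 508 (P4), 333 and 101 (P6) and 154 and 492 (P10). Its values at P0, P2 and P4 and in P10 replicate 2 were between 391 and 508, and P6 replicate 2 and P10 replicate 1 lay far below them. The difference of -0.57 (SE 0.59, adjusted p = 0.555) at P10 changed sign to 0.26 without P10 replicate 1. Mgat4b, which adds a further branch, had 359.8 and 254 (P0), 229 and 245 (P2), 278 and 303 (P4), 219 and 117 (P6) and 149 and 267 (P10) and showed the same low pair of libraries. Mgat2, which opens the second antenna, ranged from 372 to 606, with both P2 and both P4 libraries above both P0 libraries, and Mgat5, which adds the branch linked to tetra-antennary glycans, from 826 to 1273. Mgat4a was low throughout, from 18.0 to 42.7 normalised reads and as few as 23 reads in a library.

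The 5 galactosyltransferases did not pass either, with log2 differences from -0.58 to 0.14 at P2 and from -0.62 to 0.28 at P10. B4galt5, which is known for acting on glycolipids as well, had 222 and 158 (P0), 121 and 129.6 (P2), 119 and 141 (P4), 145 and 157 (P6) and 127 and 116 (P10). Its P0 duplicates were apart, and the lower of them, 158, was above all 8 later libraries. At P10 it stood -0.62 (SE 0.23, adjusted p = 0.0962) from P0. B4galt2 ranged from 263 to 524, B4galt3 from 95.4 to 283, B4galt4 from 122 to 176 and B4galt6 from 64.2 to 126. B4galt2 and B4galt3 were high at P4 and lowest in P6 replicate 2 and P10 replicate 1 respectively.

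**Figure D3:**
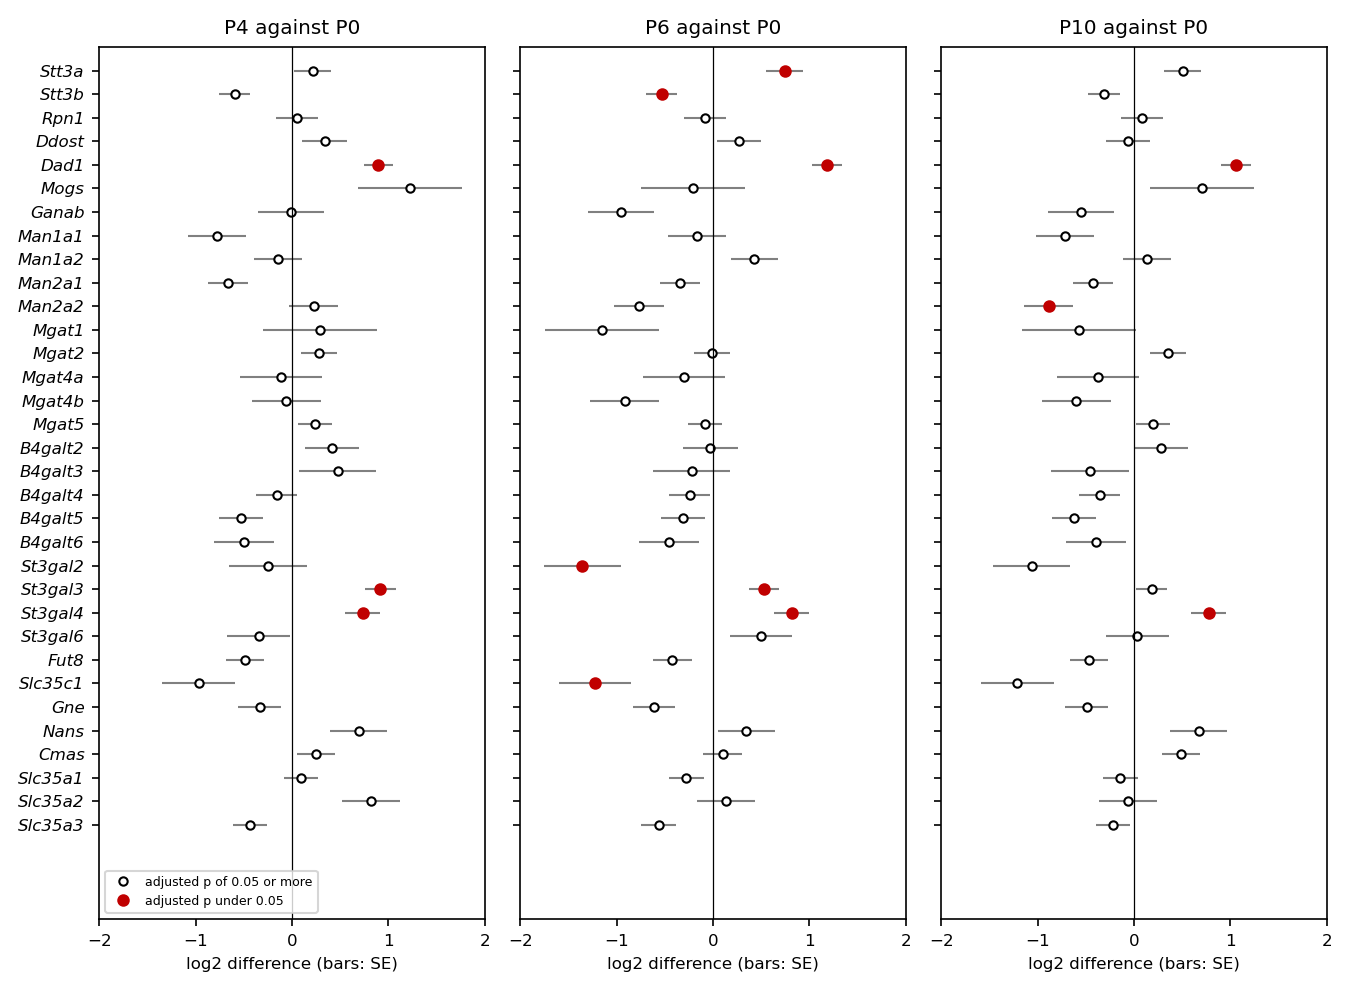
Log2 difference from P0 (x axis, bars are the SE of the fit) of the 33 genes (y axis) at P4, P6 and P10; filled points have an adjusted p under 0.05. St3gal3 and St3gal4 lie at 0.92 and 0.73 at P4, and St3gal2 and Slc35c1 at -1.36 and -1.22 at P6.

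Of the 4 sialyltransferases, 3 passed in at least 1 of the 5 comparisons, beside 29.3% of all features, and not all in 1 direction. These enzymes of the St3gal family cap galactose with sialic acid, in the linkage that CHO glycoproteins are known to carry. St3gal4 (feature 100689440) had 261 and 269 (P0), 423 and 377 (P2), 450.2 and 432 (P4), 455 and 481 (P6) and 516 and 399 (P10). Every later library lay above both P0 libraries. St3gal4 rose by 0.73 (SE 0.18, adjusted p = 0.0395) at P4, 0.82 (SE 0.18, adjusted p = 0.0170) at P6 and 0.77 (SE 0.18, adjusted p = 0.0219) at P10, and the difference of 0.59 (SE 0.18, adjusted p = 0.116) at P2 did not pass. Without P6 replicate 2 and P10 replicate 1, where P6 and P10 are 1 library each, its differences there were 0.78 and 0.59. The P4 and P10 calls were lost on leaving out any of the 6 libraries up to P4 (highest adjusted p = 0.251 and 0.143), and the P6 call without either P0 library or P6 replicate 2 (highest 0.114).

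St3gal3 had 680.3 and 632 (P0), 1113 and 1028 (P2), 1202 and 1279.7 (P4), 953 and 941 (P6) and 678 and 819 (P10). It was raised in both libraries of P2, P4 and P6 and returned towards P0 at P10, where P10 replicate 1 lay between the P0 libraries. St3gal3 was the gene called at P2, with a log2 difference of 0.71 (SE 0.16, adjusted p = 0.0469), and rose also at P4, by 0.92 (SE 0.16, adjusted p = 0.0107), and at P6, by 0.53 (SE 0.16, adjusted p = 0.0470), while 0.18 (SE 0.16, adjusted p = 0.473) at P10 did not pass. The P2 call was lost on leaving out any of the 6 libraries up to P4 (highest adjusted p = 0.344), the P4 call without either P0 or either P4 library (0.130) and the P6 call on leaving out any of the 8 libraries up to P6 (0.216). With both P6 replicate 2 and P10 replicate 1 left out, the P2 difference of St3gal3 was unchanged at 0.71.

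St3gal2 (feature 100767717) was the sialyltransferase that fell. It had 79.3 and 51.7 (P0), 56.2 and 70.4 (P2), 56.4 and 51.3 (P4), 35.2 and 16.9 (P6) and 25.3 and 35.9 (P10), based on as few as 15 reads in P6 replicate 2. The P6 and P10 libraries lay below the 6 others. The difference was -1.36 (SE 0.40, adjusted p = 0.0438) at P6 and -1.06 (SE 0.40, adjusted p = 0.102) at P10, and the P6 call was lost on leaving out P6 replicate 2 or any of the 6 libraries up to P4 (highest adjusted p = 0.245) and by edgeR on recovered reads (0.0515). With P6 replicate 2 left out the P6 difference was -0.85. St3gal6 (feature 100771326), which did not pass, had 224 and 250.1 (P0), 237 and 216 (P2), 190.0 and 183 (P4), 285 and 393 (P6) and 351 and 167 (P10), with high values in P6 replicate 2 and P10 replicate 1 and the lowest in P10 replicate 2. Its P10 difference of 0.03 (SE 0.33, adjusted p = 0.956) became -0.50 without P10 replicate 1.

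Core fucose, the residue whose absence from antibodies strengthens their binding to Fc receptors on effector cells, depends on Fut8, the only enzyme that adds it, and on Slc35c1, which carries GDP-fucose into the Golgi. Slc35c1 (feature 100689382) had 103 and 66.1 (P0), 40.6 and 48.1 (P2), 34.6 and 50.1 (P4), 38.3 and 31.5 (P6) and 26.2 and 46.8 (P10). Every later library lay below both P0 libraries, although the P0 duplicates differed. Slc35c1 fell at P6, with a log2 difference of -1.22 (SE 0.38, adjusted p = 0.04999), just under the threshold, and stood at -1.21 (SE 0.38, adjusted p = 0.0583) at P10 and -0.97 (SE 0.38, adjusted p = 0.156) at P4. Without P6 replicate 2 and P10 replicate 1 the P6 difference of Slc35c1 was -1.08. The P6 call held in the fits without a P10 library and was lost in the other 8 (highest adjusted p = 0.274) and with TMM scaling (0.0505). Fut8 had 1035 and 1139.7 (P0), 995 and 982 (P2), 889.5 and 677 (P4), 715 and 921 (P6) and 848 and 730.5 (P10). All 8 later libraries were below both P0 libraries, and the differences of -0.48 (SE 0.20, adjusted p = 0.177), -0.42 (SE 0.20, adjusted p = 0.156) and -0.46 (SE 0.20, adjusted p = 0.143) at P4, P6 and P10 did not pass. In the set without P6 replicate 2 and P10 replicate 1, P6 and P10 are 1 library each. There the differences of Fut8 at P4, P6 and P10 were -0.48, -0.60 and -0.57.

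Of the enzymes that make and activate sialic acid, Nans, Cmas and Gne did not pass. Nanp, a further enzyme that makes sialic acid, was called at P6 and is described below with nucleotide sugar supply. Nans, the sialic acid synthase (feature 100767837), had 972 and 954 (P0), 1227 and 1208 (P2), 1506 and 1612 (P4), 1713 and 875 (P6) and 1291 and 1822 (P10). It was above P0 in all later libraries but P6 replicate 2, and its difference at P10 was 0.67 (SE 0.30, adjusted p = 0.153). In the set without P6 replicate 2 and P10 replicate 1, P6 and P10 are 1 library each. There the differences of Nans were 0.34, 0.69, 0.83 and 0.92 at P2, P4, P6 and P10. Cmas, which activates sialic acid with CMP, ranged from 1416 to 2470.0, highest in P10 replicate 2. Gne, which catalyses the first and rate-limiting steps of the same route, ranged from 118 to 208 and had a difference of -0.61 (SE 0.22, adjusted p = 0.0815) at P6. Slc35a1, the CMP-sialic acid transporter, ranged from 384 to 585.

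Neither of the remaining Golgi transporters passed. Slc35a2, which carries UDP-galactose, had 213 and 217 (P0), 319 and 326 (P2), 360.2 and 402 (P4), 311 and 179 (P6) and 162 and 261 (P10). All P2 and P4 libraries, P6 replicate 1 and P10 replicate 2 lay above P0, and P6 replicate 2 and P10 replicate 1 lay below it. Its difference was 0.82 (SE 0.30, adjusted p = 0.130) at P4 and -0.06 (SE 0.30, adjusted p = 0.910) at P10, and the latter became 0.28 without P10 replicate 1. In the set without P6 replicate 2 and P10 replicate 1, where P6 is 1 library, its differences at P2, P4 and P6 were 0.58, 0.82 and 0.53. Slc35a3, a transporter of UDP-N-acetylglucosamine, had 331 and 346 (P0), 341 and 323 (P2), 270.1 and 232 (P4), 234 and 224 (P6) and 267 and 318 (P10). Its P4 and P6 libraries and P10 replicate 1 were low and P10 replicate 2 was near P0; the largest difference was -0.56 (SE 0.18, adjusted p = 0.0552) at P6.

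The disagreement of duplicates at P6 and P10 had a pattern across the 33 genes. In 12 of them P6 replicate 2 and P10 replicate 1 were both below each of the other 8 libraries, and in 3, Man1a2, St3gal4 and St3gal6, both above. Over all features the shares were 21.2% below and 16% above. The 12 were Ddost, Mogs, Ganab, Man2a2, Mgat1, Mgat4b, B4galt3, B4galt4, St3gal2, Slc35c1, Slc35a1 and Slc35a2. The low share of Dym moved with them, and its part in these values was not tested. The largest gaps between duplicates were 1.71 for Mgat1 at P6 and 1.85 for Mogs at P10, on the log2 scale.

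**Figure D4:**
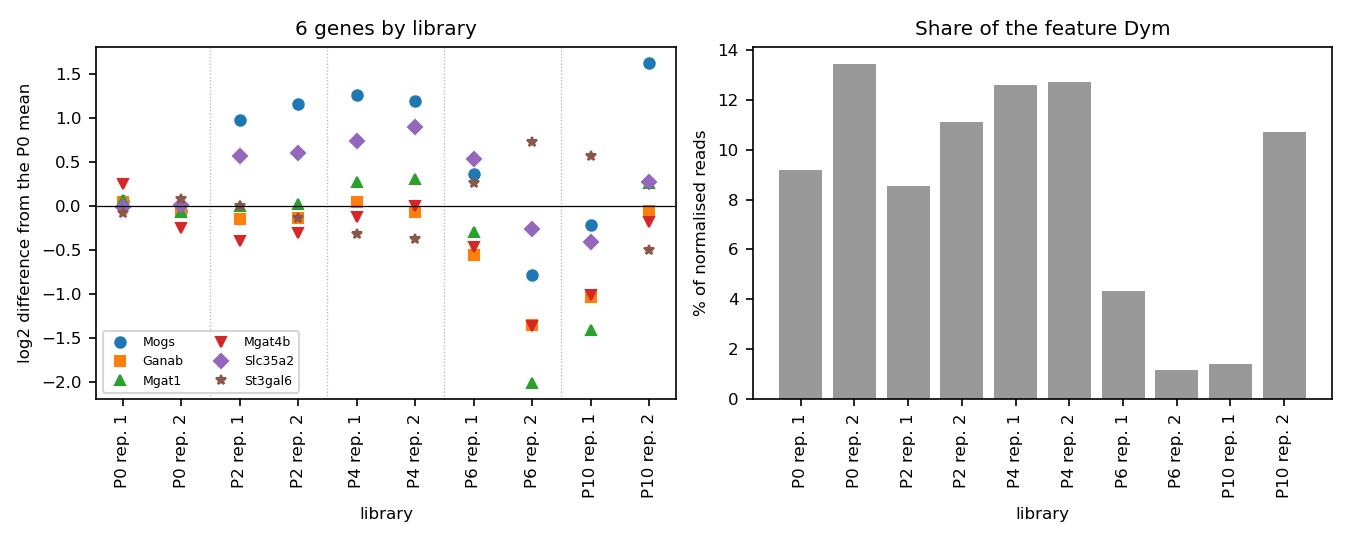
Left, log2 difference from the P0 mean (y axis) of 6 genes in each library (x axis); right, the share of the feature Dym in all normalised reads of the same libraries. Mgat1, Ganab and Mgat4b lie lowest in P6 replicate 2 and P10 replicate 1, where Dym has 1.15% and 1.41%, and St3gal6 lies highest there.

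Without P6 replicate 2 and P10 replicate 1, more genes passed, and so did more of all features. At P2 6 rose and 5 fell, 33.3% against 34.1% of all features. At P4 12 rose and 7 fell (57.6% against 43.1%), at P6 11 rose and 12 fell (69.7% against 48.8%), and at P10 8 rose and 8 fell (48.5% against 46.3%). In this set P6 and P10 are 1 library each and are assumed to vary like the other passages. With all libraries this was not met. The median log2 difference between duplicates of the 33 genes was 0.40 and 0.47 at P6 and P10, and 0.09 to 0.11 earlier. The P6 and P10 counts, and any result over all 4 comparisons, thus carry no error measured at these passages. Stt3b, Man2a1 and Man1a1 were lower and Mogs, Nans, St3gal3 and St3gal4 higher in all 4 comparisons, all of which share the P0 libraries.

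**Figure D5:**
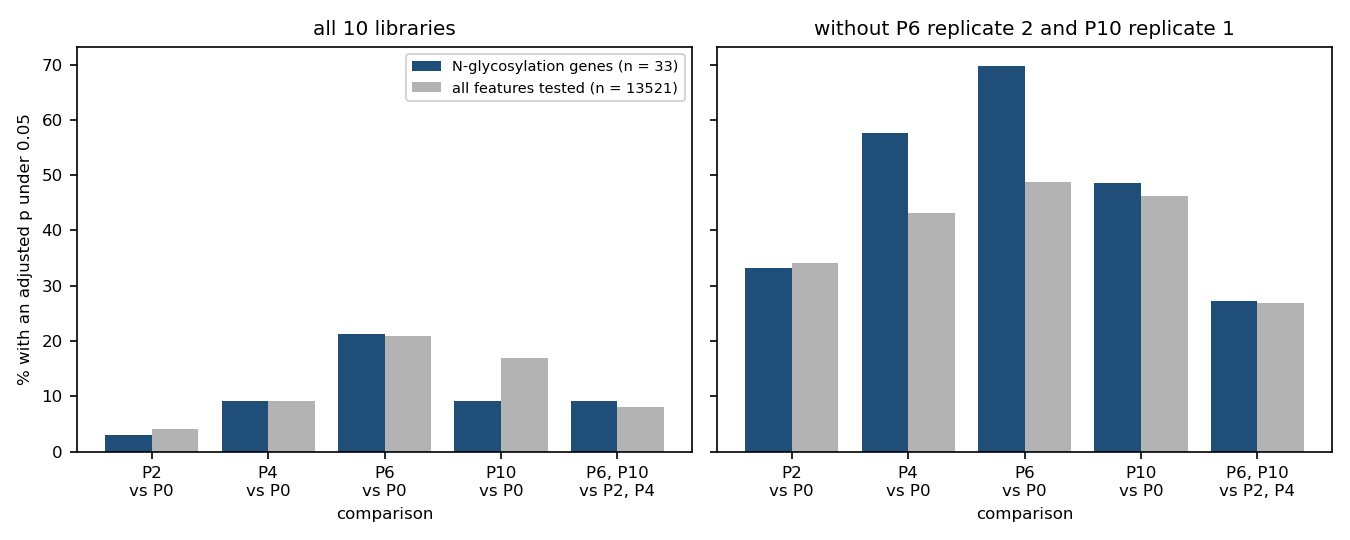
Share of features with an adjusted p under 0.05 (y axis) in 5 comparisons (x axis), for the 33 N-glycosylation genes and for all 13521 features, with all 10 libraries (left) and without P6 replicate 2 and P10 replicate 1 (right). With all libraries the pairs of bars are close except at P10, where they are 9.09% and 17%. On the right, P6 and P10 are 1 library each.

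The change within the adaptation was tested by setting P6 and P10 against P2 and P4, which leaves out the P0 libraries from the means. Of the 33 genes, 1 rose and 2 fell, 9.09% against 8.14% of all features, of which 5% rose and 3.14% fell. Late and early libraries did not overlap in 2 genes that were higher and 5 that were lower, beside 10.2% and 7.88% of all features. Dad1 was higher late, by 0.53 (SE 0.11, adjusted p = 0.0282), Man2a2 lower, with a difference of -0.96 (SE 0.18, adjusted p = 0.0245), and St3gal3 lower, with -0.45 (SE 0.11, adjusted p = 0.0452). Without P6 replicate 2 and P10 replicate 1 the differences of Dad1, Man2a2 and St3gal3 were 0.52, -0.79 and -0.38. For Dad1 and Man2a2 the 4 late libraries did not overlap the 4 early ones, and the same held for St3gal3, whose highest late value, 953, was below the lowest early one, 1028. Each of these calls held in the fits without a P10 library and was lost in the other 8 fits without 1 library (highest adjusted p = 0.150, 0.127 and 0.179). St3gal2, with its late libraries all below the early ones, stood at -1.07 (SE 0.28, adjusted p = 0.0521) and did not pass. Without P6 replicate 2 and P10 replicate 1, 9 of the 33 genes were called, 27.3% against 26.8% of all features.

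A further 112 genes were listed, of the route or tied to it, among them lysosomal enzymes that take glycans apart. They are called the other genes of the route. Of these, 98 matched a feature and 92 were tested, the feature Dym among them. At P2, 5 rose and none fell, 5.43% beside 4.15% of all features, and at P4 7 rose and none fell, 7.61% beside 9.24%. At an unadjusted p under 0.05 by limma, 11 were higher and 3 lower at P2, beside 8.1% and 10.5% of all features. At P4 16 were higher and 2 lower, beside 10.4% and 13.7%. By edgeR none were called lower at P2 or P4, beside 1.87% and 5.3%, and DESeq2 called 1 lower at P4, beside 7.99%. At P6, 10 rose and 2 fell, 13% beside 21%, and at P10 5 rose and 1 fell, 6.52% beside 17%. Late against early, 2 rose and 2 fell, 4.35% beside 8.14%. The shares at P6, P10 and late against early thus lay below those of all features. With each spread taken from its own passages alone, none passed at P10, beside 0.362% of all features, and 8 had an unadjusted p under 0.05, beside 20.3%. The median log2 differences of the 92 genes were 0.16, 0.23, -0.13 and 0.05. In the oligosaccharyltransferase accessory subunits, 2 of 5 rose at P4, P6 and P10, where 3.72%, 10.5% and 8.77% of all features rose. Ost4, a very small subunit of the complex, had 608 and 720.0 (P0), 1212 and 1276 (P2), 1609 and 1788 (P4), 3141 and 1895 (P6) and 1912 and 1389.9 (P10), above P0 in all later libraries, and rose by 1.36 (SE 0.26, adjusted p = 0.0149) at P4, 1.88 (SE 0.26, adjusted p = 0.00288) at P6 and 1.30 (SE 0.26, adjusted p = 0.0123) at P10. Without P6 replicate 2 and P10 replicate 1 the differences of Ost4 at P6 and P10 were 2.25 and 1.07. Its P6 call held in all 10 fits without 1 library, its P10 call was lost without either P0 library (highest adjusted p = 0.115) and its P4 call without either P0 or P4 library (highest 0.144). Magt1, an oxidoreductase subunit that serves the Stt3b form and is named after its values were seen, had 1611 and 1726 (P0), 2998 and 2863 (P2), 3064 and 2690.0 (P4), 2718 and 2422 (P6) and 2612 and 2747 (P10) and rose at each passage, by 0.81 (SE 0.16, adjusted p = 0.0288) at P2 and 0.68 (SE 0.16, adjusted p = 0.0221) at P10. The Magt1 calls at P2, P4 and P10 were lost on leaving out any of the 6 libraries up to P4, and that at P6 also without P6 replicate 1 (highest adjusted p = 0.255, 0.202, 0.164 and 0.173).

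Among other Golgi glycosyltransferases, 3 of 8 rose in P2 and in P4, while in P6 2 rose and 1 fell, and in P10 2 rose. Over all features 2.08%, 3.72%, 10.5% and 8.77% rose at P2, P4, P6 and P10, and 10.5% fell at P6. St3gal5, the sialyltransferase that makes the ganglioside GM3 and so acts on lipids rather than N-glycans, had 202 and 155 (P0), 327 and 315 (P2), 411 and 389 (P4), 486 and 429 (P6) and 414 and 419 (P10). All later libraries were above P0, and St3gal5 rose by 0.85 (SE 0.18, adjusted p = 0.0402) at P2, 1.17 (SE 0.18, adjusted p = 0.00759) at P4, 1.36 (SE 0.18, adjusted p = 0.00287) at P6 and 1.23 (SE 0.18, adjusted p = 0.00455) at P10. The P6 and P10 calls held in all 10 fits without 1 library, though the P10 call was lost with the spread of P0 and P10 alone (adjusted p = 0.109). The P4 call was lost without P0 replicate 2 or either P4 library (highest adjusted p = 0.0937) and the P2 call on leaving out any of the 6 libraries up to P4 (highest 0.296). Fut11, a fucosyltransferase, rose at P2 and P4, by 0.82 (SE 0.19, adjusted p = 0.0463) and 0.74 (SE 0.19, adjusted p = 0.0414), calls that were lost on leaving out any of the 6 libraries up to P4 (highest 0.365 and 0.256). B3gnt2, which extends glycans with N-acetyllactosamine and is named after its values were seen, rose at all 4 passages, from 955 and 947 at P0 to 1563 and 1461 at P10. Its P6 call was lost without either P0 library, its P4 call without either P0 or either P4 library, and those at P2 and P10 on leaving out any of the 6 libraries up to P4 (highest adjusted p = 0.0898, 0.141, 0.344 and 0.156). Man1c1, a further Golgi mannosidase, fell at P6, with a log2 difference of -1.18 (SE 0.32, adjusted p = 0.0321); this was lost on leaving out any of the 8 libraries up to P6 (highest 0.151).

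In nucleotide sugar supply, Gfpt2, which opens the hexosamine route, rose at P4, from 21.8 and 14.4 to 56.4 and 53.6 normalised reads, by 1.58 (SE 0.33, adjusted p = 0.0215); the call was lost without either P0 or either P4 library (highest adjusted p = 0.171). Slc35a5, a transporter-like protein of the nucleotide sugar family, rose at P6 and P10, by 1.04 (SE 0.23, adjusted p = 0.0164) and 0.87 (SE 0.23, adjusted p = 0.0327); the P6 call was lost without either P0 or either P6 library (highest 0.108) and the P10 call on leaving out P10 replicate 1 or any of the 6 libraries up to P4 (highest 0.174). Without P10 replicate 1 the P10 difference of Slc35a5 was 0.54. Nanp, a further enzyme that makes sialic acid, is named after its values were seen. It rose at P6 by 0.89 (SE 0.23, adjusted p = 0.0288). The call of Nanp was lost on leaving out any of the 8 libraries up to P6. In the assembly of the lipid-linked precursor, 1 of 20 passed in at least 1 comparison, beside 29.3% of all features. This was Alg2, a mannosyltransferase, which fell at P10 from 722 and 591 to 336 and 274. Its log2 difference was -1.10 (SE 0.20, adjusted p = 0.00929), a call lost without P0 replicate 1 (adjusted p = 0.100).

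In glycoprotein folding and quality control, 3 of 12 rose at P6, beside 10.5% of all features. They were the lectin chaperone Canx and the mannosidase-like Edem3, named after their values were seen, and the cargo receptor Lman1. Canx rose by 1.01 (SE 0.25, adjusted p = 0.0266) and Edem3 by 0.83 (SE 0.22, adjusted p = 0.0319); both calls were lost on leaving out P6 replicate 1 or any of the 6 libraries up to P4, and that of Edem3 also without P6 replicate 2 (highest 0.140 and 0.155). Lman1 had 1551 and 1581 (P0), 1439 and 1255 (P2), 1452 and 1460.4 (P4), 2883 and 3532 (P6) and 2958 and 1507 (P10); P6 and P10 replicate 1 were high and P10 replicate 2 was at the P0 level. It rose at P6 by 1.03 (SE 0.28, adjusted p = 0.0355) and was higher late than early by 0.89 (SE 0.20, adjusted p = 0.0369), both calls being lost on leaving out any of the 8 libraries up to P6 (highest adjusted p = 0.169 and 0.162). In the set without P6 replicate 2 and P10 replicate 1 the latter was 0.58. Among lysosomal enzymes that take glycans apart, Man2b1, lysosomal alpha-mannosidase, had 861 and 824 (P0), 1749 and 1666 (P2), 1589 and 1547 (P4), 1301 and 892 (P6) and 721 and 999.7 (P10). It rose at P2 and P4, by 1.02 (SE 0.22, adjusted p = 0.0409) and 0.90 (SE 0.22, adjusted p = 0.0406), while P10 replicate 1 lay below both P0 libraries and P10 replicate 2 above them. Both calls were lost on leaving out any of the 6 libraries up to P4 (highest 0.285 and 0.231). Glb1, lysosomal beta-galactosidase, had 1154 and 1084 (P0), 1040.4 and 1138 (P2), 1253 and 1082 (P4), 704 and 433 (P6) and 487 and 859 (P10) and fell at P6, with a log2 difference of -1.02 (SE 0.30, adjusted p = 0.0430); the call was lost on leaving out P6 replicate 2 or any of the 6 libraries up to P4 (highest 0.206). Without P6 replicate 2 its difference was -0.67. Of the 9 genes of this group, 1 rose and 1 fell at P6, where 10.5% of all features went each way. The one that rose was Aga, which splits the bond between asparagine and the glycan and is named after its values were seen. Aga had 4889 and 5398 (P0), 7057 and 6240.4 (P2), 7165 and 7152 (P4), 9330.4 and 9977 (P6) and 10004 and 5829 (P10), and rose at P6 by 0.91 (SE 0.26, adjusted p = 0.0389), a call lost on leaving out any of the 8 libraries up to P6 (highest adjusted p = 0.200).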

How the data were processed

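RNA sequencing libraries (Ribo-Zero and stranded TruSeq kits, per the labels' protocols, read on a MiSeq) were deposited as 1 table of signal values: read counts that the authors divided by a size factor per library with DESeq, per the submitters' processing notes. The sources used here do not give the aligner, the counting rule or the genome build, so overlapping genes, paralogs and antisense reads may be shared. Values in each column were whole multiples of its smallest value (100% within 0.01 reads), which gave back reads. In P4 replicate 1 this step lies close to 1. Gene numbers were matched to symbols through the RefSeq table of CriGri-PICRH-1.0.

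The main test was limma 3.58.1 (R 4.3.3) with a trended prior on log2(value + 1). It used the features whose mean reached 10 and fitted a mean per passage to the 10 libraries together (5 residual degrees of freedom), two-sided, Benjamini-Hochberg at 0.05. SE are those of the fit. Alternatives were pseudocounts of 0.5 and 5, no filter or a mean of at least 50, TMM, edgeR 4.0.16 and DESeq2 1.42.0 on recovered reads, a replicate term, fewer passages, array weights, and left-out libraries. The fit on P0, P2 and P4 alone was added after seeing the data. Scripts were tested on simulated data. Genes, lists, rule and alternatives were chosen with earlier results of these data known. Named were all called genes of the 33, Fut8, Mgat1, Slc35a2, the largest P10 difference not called per role, and the 3 largest called per direction per comparison among the other genes. Levels were not compared between genes, for want of transcript lengths.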

Additional observations from a re-analysis of the deposited data

Results flagged for a closer look

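Some genes changed from P0 by different amounts late (P6 and P10) and early (P2 and P4), by the limma test of that difference itself. Dad1 was 0.53 (SE 0.11, adjusted p = 0.0282) higher late on the log2 scale, with all 4 late libraries above all 4 early ones. For Man2a2 the late changes lay -0.96 (SE 0.18, adjusted p = 0.0245) from the early ones, and for St3gal3 -0.45 (SE 0.11, adjusted p = 0.0452), again with no overlap between late and early libraries. Of the other genes of the route, Man2b1 (-0.77, adjusted p = 0.0282) and Glb1 (-0.91, adjusted p = 0.0388) were lower late, and St8sia4 (0.91, adjusted p = 0.0459) and Lman1 (0.89, adjusted p = 0.0369) higher. St8sia4, a polysialyltransferase, had 147 and 193 (P0), 132 and 129.6 (P2), 151 and 115 (P4), 239 and 294 (P6) and 319.8 and 166 (P10), so that P10 replicate 2 lay among the values of P0. Without P6 replicate 2 and P10 replicate 1 the differences of Man2b1, Glb1, St8sia4 and Lman1 were -0.52, -0.53, 0.60 and 0.58. All 7 calls held only where a P10 library was left out, apart from Man2b1 and Glb1, which also held without P6 replicate 1; the highest adjusted p in the other fits without 1 library was 0.150 for Dad1, 0.127 for Man2a2, 0.179 for St3gal3, 0.135 for Man2b1, 0.163 for Glb1, 0.174 for St8sia4 and 0.162 for Lman1.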

How the results depend on the processing

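Of 50 results on single genes, recomputed in 1059 alternatives, 763 kept direction and side of the threshold, 279 kept direction but lost the call, 9 gained one and 8 changed sign. The sign changes were all at P10 and in genes not called. Mgat1 stood at 0.26 without P10 replicate 1, with or without P6 replicate 2, and at -1.41 without P10 replicate 2; Slc35a2 at 0.28 and -0.40; St3gal6 at -0.50 and 0.57, and at -0.05 without P0 replicate 1; Mogs at 1.63 and -0.22.

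Counts are given in the order P2, P4, P6 and P10 against P0, then P6 and P10 against P2 and P4. Of the 33 genes, 1, 3, 7, 3 and 3 were called, and 3 in any passage. The counts moved on leaving out each library in turn, and so did the shares over all features. Each of these fits leaves 1 library at a passage, so their counts are not given. Counts without both P6 replicate 2 and P10 replicate 1 stand above, beside the shares over all features. With only the passages compared in the fit, 11, 17, 3, 0 and 0 were called, beside 29.1%, 42%, 19.4%, 0.362% and 0.732% of all features. The P0, P2 and P4 libraries alone, a fit added after seeing the data, gave 11 and 19 at P2 and P4, beside 34.1% and 43.1%. Where limma called 0 with only the passages compared, 6 had an unadjusted p under 0.05 at P10 and 8 for late against early. Array weights gave 10 at P2, 16 at P4, 1 at P10 and 17 in any passage, beside 30.6%, 42%, 5.95% and 42.8% of all features. With no filter on low values, 0 were called at P2 (6 at an unadjusted p under 0.05) and 3 at P6, beside 1.92% and 11.9%. DESeq2 gave 6 for late against early and 7 in any passage, beside 18.8% and 27.8%.

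Of the 92 other genes of the route, 5, 7, 12, 6 and 4 were called. Leaving out each library gave 0 to 9, 0 to 15, 2 to 29, 1 to 29 and 0 to 49. Without both doubted libraries the counts were 30, 44, 41, 38 and 24, with only the passages compared 24, 43, 13, 0 and 0, and with array weights 27, 40, 19, 3 and 10. The P0, P2 and P4 libraries alone gave 30 and 43, beside 34.1% and 43.1%. In the fits that left out 1 library, the shares over all features moved as well. DESeq2 gave 8 at P2, 11 at P4, 10 at P10 and 15 for late against early, beside 7.78%, 13.4%, 22.3% and 18.8% of all features. With no filter 1 was called at P2 and 2 for late against early, beside 1.92% and 2.9%. Fits on fewer samples have fewer degrees of freedom by construction; otherwise the cause of these differences was not tested.

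Same-numbered libraries are not stated to be paired, and their deviations from the passage means correlated between -0.67 (P6 and P10) and 0.225 (P2 and P10) across features. With the replicate number as a block, 0, 2, 3, 2 and 0 of the 33 genes were called and 1 in any passage, beside 1.93%, 5.67%, 15%, 12.5%, 2.54% and 5.04% of all features (3 at P2 and 8 for late against early had an unadjusted p under 0.05), and of the 92 other genes 0, 5, 8, 6 and 0 (11 and 28 at an unadjusted p under 0.05 where 0 were called). Mgat4a, St3gal2 and Slc35c1 had the fewest reads of the 33, with 23, 15 and 28 in their lowest library; the part of depth in their results was not tested.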
